A study of Arabidopsis thaliana with 10 samples.

Results

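The comparison is of shoot transcriptomes with low against high replicate numbers, within both genotypes of the study. Of the 10 RNA-seq libraries of Arabidopsis thaliana shoots, 8 are compared here: the 4 libraries numbered 1 and 2 (low numbers) against the 4 libraries numbered 4 and 5 (high numbers), with 2 libraries of each genotype on either side. The sets were chosen because these libraries were already known to differ in expression, so the difference between low and high numbers is given as a description without a test. The 2 libraries numbered 3 were set aside and serve only to show where they lie. What the number stands for (plant, plate, harvest, extraction or sequencing order) is not stated in the labels and was not tested.

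In each set 2 libraries came from a transgenic line (OE, titled OE-11) that carries the oilseed rape trehalose-6-phosphate synthase gene BnaC02.TPS8 behind the constitutive 35S promoter, and the others from wild-type Col-0 plants (WT). All were shoots of seedlings kept for 10 days on solid 1/2 MS medium with 1% sucrose and 1% agar in the normal condition, so no treatment differs between the sets. The title of the line (OE-11) does not match the series description (O2), so which line was sampled is unclear, and no measured locus stands for the rapeseed transgene. Whether replicates were grown in separate dishes is not stated in the labels, and the p-values below measure only the spread between these samples.

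Seedlings take up sulfate and reduce it through adenosine 5′-phosphosulfate (APS), and when sulfur runs short they switch on APS reductases and the LSU (low sulfur) genes. Part of the reduced sulfur goes into glucosinolates, the sulfur-rich defence compounds of the cabbage family. When sugar runs short, plants switch on a starvation programme that breaks down amino acids, cell wall sugars and inositol for energy, while ample sugar favours anthocyanin synthesis.

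The data are FPKM, fragment counts scaled by transcript length and library size, for 32824 genes. Of these, 17713 had a mean of at least 1 FPKM over the 10 libraries and were analysed as log2(FPKM + 1). The estimated depth was 18280000 to 22040000 fragments in low-numbered and 18520000 to 22380000 in high-numbered libraries. Shoot markers such as the chlorophyll-binding protein LHCB1.3 were abundant in every library (30090, 32550, 31970 and 29380 FPKM in OE1, OE2, WT1 and WT2, against 29790, 36020, 32590 and 29730 FPKM in OE4, OE5, WT4 and WT5). The 11 root markers summed to between 0.718 and 1.49 FPKM in low-numbered and between 0.294 and 1.98 FPKM in high-numbered libraries, with CASP5 at 0. The 10 seed markers summed to at most 0.737 FPKM in low-numbered and 0.312 FPKM in high-numbered libraries, with the seed storage genes CRB, CRC and SESA3 at 0. In whole shoots, a lower level in fewer cells and less RNA per cell cannot be told apart.

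After the genotype means were removed, the first principal component, which held 22.5% of the remaining variance over the 10 libraries, placed all low-numbered libraries on one side. Its scores were 23.5 and 13.6 in OE1 and OE2 and 24.95 and 13.85 in WT1 and WT2. They were -20.4 and -18.1 in OE4 and OE5 and -23.2 and -27.1 in WT4 and WT5. OE3 and WT3 scored 1.44 and 11.5, so both lay between the sets.

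**Figure D1:**
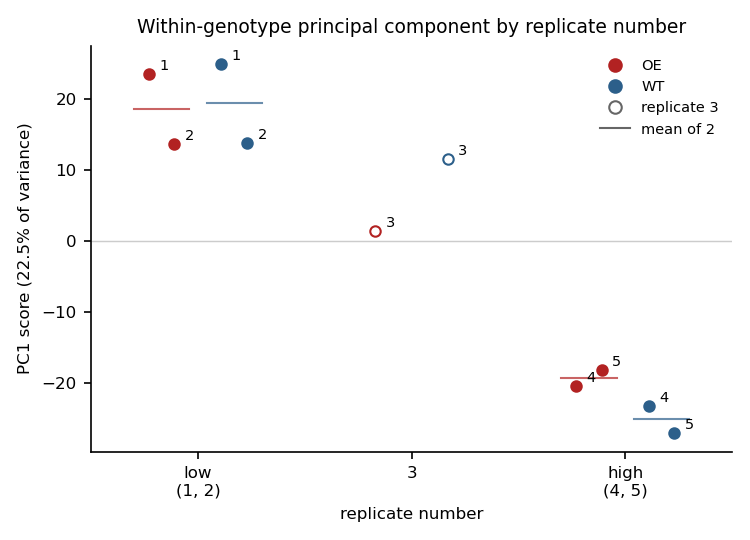
Score of each of the 10 libraries on the first principal component of log2(FPKM + 1) with genotype means removed (y axis, 22.5% of the variance), by replicate number (x axis: low numbers, number 3, high numbers), with OE in red, WT in blue and lines at the mean of 2 libraries. The 4 low-numbered libraries score between 13.6 and 24.95 and the 4 high-numbered ones between -27.1 and -18.1, with the open points of replicate 3 at 1.44 (OE) and 11.5 (WT).

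A gene was called when the low minus high difference, with genotype as a covariate, was at least 1.5-fold and both low-numbered libraries lay on the same side of both high-numbered ones in OE and in WT. By this rule 554 of 17713 genes were called (3.13%), 317 of them higher (1.79%) and 237 lower (1.34%) in low numbers. At least 2-fold differences were found in 71 higher and 69 lower genes (together 0.79%). Of the 554, 464 also had no overlap when the 4 low-numbered libraries were set against the 4 high-numbered ones without regard to genotype. Without asking for a fold, 9.82% of genes were higher and 11.1% lower in low numbers with no overlap in either genotype, while 382 genes had no overlap but opposite directions in OE and WT. The sets were picked on these values, and nothing is read from these shares. The 317 became 489 without OE4.

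The sets were picked on expression in both genotypes, so likeness of the OE and WT differences follows in part from that choice and is no independent support. Across the 17713 genes, which are not independent replicates, the low minus high differences of OE and WT had a Pearson r of 0.285 and a Spearman rho of 0.561, and 70.4% of genes had the same sign in both. Genes at the edge of the fold threshold were NIA1, a nitrate reductase, which was called at 1.52-fold, and TPS8, which was not called at 1.47-fold.

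**Figure D2:**
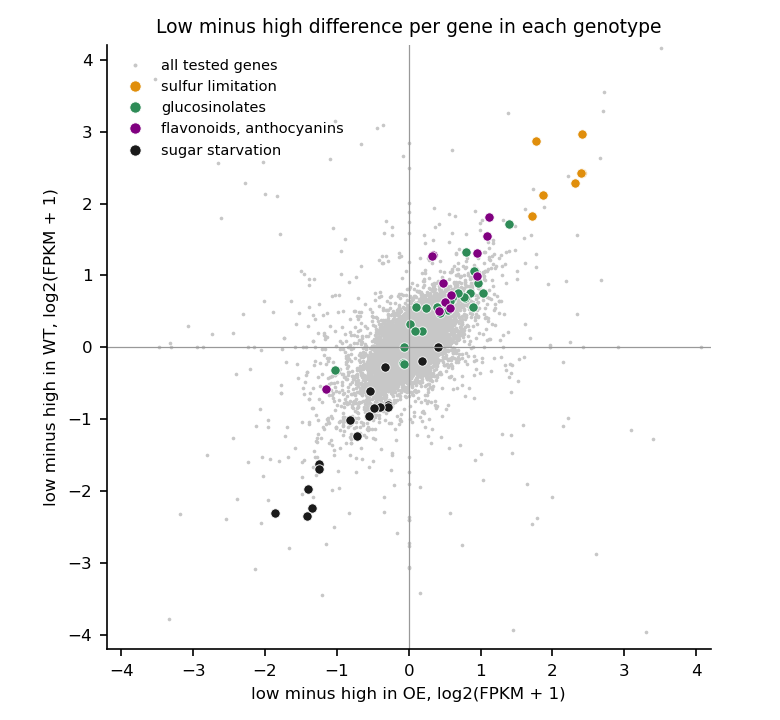
Low minus high difference of each tested gene on the log2(FPKM + 1) scale in OE (x axis, OE1 and OE2 minus OE4 and OE5) and in WT (y axis, WT1 and WT2 minus WT4 and WT5), with members of 4 gene lists in colour; 29 genes beyond 4.2 on either axis are not drawn. All 7 sulfur limitation genes lie at the upper right, and the sugar starvation genes lie mostly at the lower left.

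Technical measures overlapped between the pooled sets but not always within a genotype. Plastid genome transcripts made up 0.442% and 1.2% of all FPKM in OE1 and OE2 and 0.552% and 3.98% in WT1 and WT2, against 2.9% and 1.44% in OE4 and OE5 and 4.28% and 0.814% in WT4 and WT5, so the sets overlapped in WT but not in OE. In OE, mitochondrial transcripts (0.00327% and 0.0182% in OE1 and OE2, against 0.0326% and 0.0454% in OE4 and OE5) and nuclear rRNA (0.502% and 0.847% in OE1 and OE2, against 1.95% and 0.896% in OE4 and OE5) did not overlap either, nor did the sum of FPKM. The median level of GC-rich minus GC-poor transcripts was 0.564 to 0.632 on the log2 scale in low numbers and 0.607 to 0.666 in high numbers, without overlap in WT (0.572 and 0.576 in WT1 and WT2, against 0.607 and 0.666 in WT4 and WT5). The level of long minus short transcripts did not overlap in WT either (-0.727 and -0.755 in WT1 and WT2, against -0.812 and -0.795 in WT4 and WT5). With length and GC trends removed, 338 genes were called higher and 245 lower in low numbers. With the 3 libraries richest in plastid transcripts left out (OE4, WT2 and WT4), the counts were 708 higher and 419 lower, with fewer libraries entering the rule. These 3 libraries were picked after the data were seen, and the part of these measures in the other results was not tested.

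Genes of sulfur limitation had the highest median among the gene lists. All 7 tested members of this list were called higher in low numbers, with a median log2 difference of 2.32. The list held 8 genes, and LSU4 was under 1 FPKM. Over all tested genes 1.79% were called higher, and the median was -0.01. LSU2, a small protein that accumulates under low sulfur, had 14.6 and 5.46 FPKM in OE1 and OE2 and 22.2 and 11.01 FPKM in WT1 and WT2, against 0.767 and 0.991 FPKM in OE4 and OE5 and 1.67 and 0.690 FPKM in WT4 and WT5. Every low-numbered library thus exceeded every high-numbered one, and the log2 difference was 2.70 (SE 0.40). LSU1 and LSU3 from the same family differed by 2.41 (SE 0.47) and 2.32 (SE 0.47), and OE4 was listed at 0 FPKM for LSU1. Since these genes were under 1 FPKM in most high-numbered libraries, their differences depend on the pseudocount, and with 0.1 in place of 1 they were 3.48, 4.04 and 3.78 for LSU2, LSU1 and LSU3.

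APS reductases, which reduce activated sulfate and control the flux through the pathway, differed at much higher levels. APR3 had 95.1 and 40.2 FPKM in OE1 and OE2 and 117 and 78.4 FPKM in WT1 and WT2, against 14.4 and 9.31 FPKM in OE4 and OE5 and 29.9 and 11.8 FPKM in WT4 and WT5. APR1 had 48.3 and 21.1 FPKM in OE1 and OE2 and 60.6 and 39.0 FPKM in WT1 and WT2, against 5.46 and 4.95 FPKM in OE4 and OE5 and 13.2 and 5.00 FPKM in WT4 and WT5. The log2 differences were 2.301 (SE 0.43) for APR3, 2.42 (SE 0.40) for APR1 and 1.77 (SE 0.28) for APR2, each without overlap between the 4 low-numbered and the 4 high-numbered libraries. Replicate 3 lay between the sets in both genotypes, at 26.6 and 43.4 FPKM for APR3 in OE3 and WT3.

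ATSDI1 (AT5G48850), which is induced by sulfur deficiency and holds back glucosinolate synthesis, had 9.17 and 2.43 FPKM in OE1 and OE2 and 9.76 and 9.95 FPKM in WT1 and WT2, against 0.793 and 0.445 FPKM in OE4 and OE5 and 1.93 and 1.12 FPKM in WT4 and WT5. OE2 was nearer to the high-numbered WT libraries than to the other low-numbered ones, and the log2 difference was 2.00 (SE 0.38). Of the 7 promoters of this list, only that of ATSDI1 holds GAGAC, the core of the sulfur-responsive element, on either strand of the 250 bases before the gene start. In 25.4% of the 17647 promoters of tested nuclear genes these letters also occur, so the match is a description. The window is chr5:19807854-19808103 (TAIR10.1, minus strand, sequence from the RefSeq assembly), shown 5′ to 3′ with the match in capitals on the opposite strand, its first base 23 bases before the gene start.
ATSDI1: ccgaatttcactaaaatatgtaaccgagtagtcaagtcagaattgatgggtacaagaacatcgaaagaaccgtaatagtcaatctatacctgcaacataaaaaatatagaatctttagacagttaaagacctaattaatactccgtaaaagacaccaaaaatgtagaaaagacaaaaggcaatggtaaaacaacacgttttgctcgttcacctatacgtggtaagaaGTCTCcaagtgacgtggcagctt

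Beyond the list, 3 more of the named genes with large positive differences were AT1G04770, SHM7 and AT1G73600. AT1G04770, which encodes a tetratricopeptide repeat protein like ATSDI1, differed by 1.96 (SE 0.42). SHM7, a serine hydroxymethyltransferase, had 54.6 and 27.3 FPKM in OE1 and OE2 and 67.8 and 51.8 FPKM in WT1 and WT2, against 11.8 and 8.04 FPKM in OE4 and OE5 and 20.7 and 10.3 FPKM in WT4 and WT5. AT1G73600, annotated as an S-adenosylmethionine-dependent methyltransferase, differed by 1.63 (SE 0.18), with 176 FPKM or more in each low-numbered library.

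The wider list of sulfate uptake and assimilation, which was added after its values were seen, was less uniform. The list median was 0.16. Of 28 tested genes, 4 were called higher and 1 lower in low numbers, beside 1.79% and 1.34% over all tested genes. The higher ones were AKN2 and APK, kinases that phosphorylate APS for sulfation, with differences of 1.11 (SE 0.17) and 0.82 (SE 0.08), and the sulfate transporters SULTR4;2 and SULTR3;1 (0.63 and 0.60). AKN2 had 47.0 and 32.0 FPKM in OE1 and OE2 and 47.5 and 40.4 FPKM in WT1 and WT2, against 17.2 and 19.4 FPKM in OE4 and OE5 and 21.7 and 16.2 FPKM in WT4 and WT5. The transporter SULTR3;3 was lower, at -0.80 (SE 0.18). Enzymes later in the pathway differed less, with 0.16 for sulfite reductase SIR and -0.01 for the cysteine synthase OASA1, which stood at 363 and 359 FPKM in OE1 and OE2 and 365 and 390 FPKM in WT1 and WT2, against 337 and 401 FPKM in OE4 and OE5 and 366 and 386 FPKM in WT4 and WT5. EIL3 (SLIM1), the transcription factor of the sulfur limitation response, differed by -0.04.

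Part of the glucosinolate genes, mostly of the aliphatic branch, were also higher in low numbers. In the list of glucosinolates and myrosinases, 11 of 25 tested genes were called higher and none lower. The shares over all tested genes were 1.79% and 1.34%. The list median was 0.54, and 4 of its genes lay below 0. The lowest of these stood at -0.67 and was not called. CYP79F1, which starts the core synthesis of aliphatic glucosinolates, had 43.2 and 43.95 FPKM in OE1 and OE2 and 45.5 and 42.3 FPKM in WT1 and WT2, against 16.3 and 15.5 FPKM in OE4 and OE5 and 15.4 and 10.4 FPKM in WT4 and WT5. The 4 low-numbered values lay close together and well above the others, and the difference was 1.56 (SE 0.14). MYB29, a transcription factor of the aliphatic branch, differed by 1.06 (SE 0.20), while its relative MYB28 differed by 0.33 (SE 0.12) and was not called. The transporter BAT5, which brings chain elongation intermediates into plastids, differed by 0.99 (SE 0.11), and the sulfotransferases SOT17 and SOT18 of the last core step by 0.89 and 0.80. Of the indolic branch, CYP79B2, CYP79B3, CYP83B1, MYB34 and MYB51 were not called (0.45, 0.15, 0.20, 0.17 and -0.03), nor were the myrosinases TGG1 and TGG2 (-0.14 and -0.15), which cleave glucosinolates.

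Chain elongation and side chain genes of the aliphatic branch, a list added after the values were seen, held 5 called of 8 (median 0.69). The share called over all tested genes was 3.13%. IPMI1, an isopropylmalate isomerase subunit, had 33.0 and 26.9 FPKM in OE1 and OE2 and 35.8 and 28.8 FPKM in WT1 and WT2, against 10.7 and 10.5 FPKM in OE4 and OE5 and 11.6 and 7.496 FPKM in WT4 and WT5. The S-oxygenases FMO GS-OX3 and FMO GS-OX1, which modify the side chain, differed by 1.54 (SE 0.15) and 0.97 (SE 0.12). Gene copies of this branch are similar in sequence, so the split of fragments between them is uncertain.

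**Figure D3:**
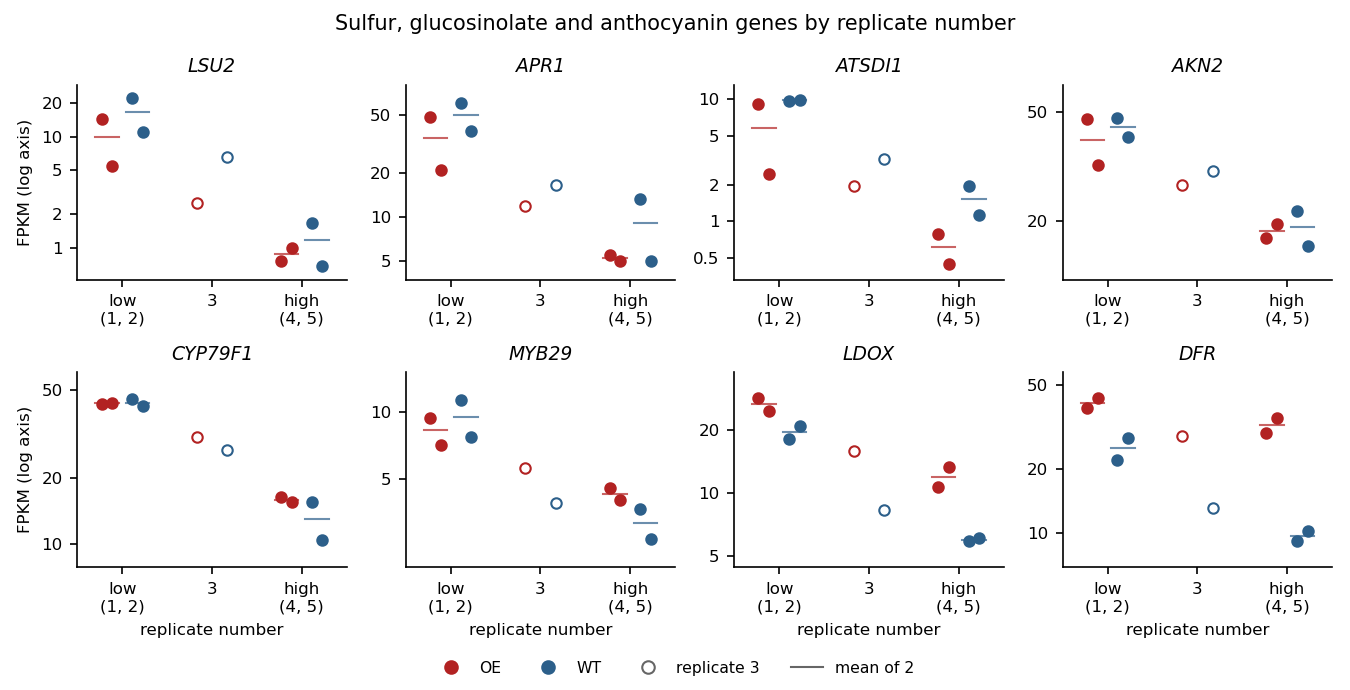
FPKM of 8 sulfur, glucosinolate and anthocyanin genes in each of the 10 libraries (y axis, log scale, a separate range in each panel), by replicate number (x axis), with OE in red, WT in blue, open points for replicate 3 and lines at the mean of 2 libraries. In each panel the low-numbered libraries of a genotype lie above its high-numbered ones; for DFR the OE libraries numbered 4 and 5 stay at 29.9 and 35.1 FPKM, against 9.17 and 10.2 FPKM in WT.

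Flavonoid and anthocyanin genes were mostly higher in low numbers. Of 12 tested members, 8 were called higher and 1 lower in low numbers (median 0.74), and the lower one was GPT2. The shares over all tested genes were 1.79% and 1.34%. GPT2, a sugar-induced plastid glucose phosphate transporter, and APL3, a subunit of the starch synthesis enzyme ADP-glucose pyrophosphorylase (0.56, not called), are on the list but are not flavonoid enzymes. LDOX, which makes anthocyanidins, had 28.2 and 24.5 FPKM in OE1 and OE2 and 18.0 and 20.9 FPKM in WT1 and WT2, against 10.6 and 13.3 FPKM in OE4 and OE5 and 5.90 and 6.07 FPKM in WT4 and WT5. GSTF12, which carries anthocyanins to the vacuole, differed by 1.47 (SE 0.17), and the glycosyltransferase UGT79B1 by 1.13 (SE 0.16). Chalcone synthase CHS, the entry enzyme, had 76.9 and 84.6 FPKM in OE1 and OE2 and 48.0 and 53.5 FPKM in WT1 and WT2, against 53.8 and 76.1 FPKM in OE4 and OE5 and 22.0 and 18.8 FPKM in WT4 and WT5. DFR, which reduces dihydroflavonols, had 39.1 and 43.5 FPKM in OE1 and OE2 and 22.2 and 28.3 FPKM in WT1 and WT2, against 29.9 and 35.1 FPKM in OE4 and OE5 and 9.17 and 10.2 FPKM in WT4 and WT5. For both genes both OE values in high numbers exceeded both WT values in low numbers, and the sets did not overlap within either genotype.

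The G-box CACGTG, a site bound by basic helix-loop-helix and bZIP factors, occurs in the 250 bases before the start of 4 of the 12 genes (CHS, F3H, DFR and UGT79B1), and in 7.2% of promoters of all tested nuclear genes. It occurs in 32 of the 317 genes called higher and in 24 of the 235 promoters of genes called lower in low numbers. The promoters of CHS (chr5:4488226-4488475, plus strand) and DFR (chr5:17166033-17166282, minus strand) are shown because these genes return below in the test of OE against WT, in TAIR10.1 coordinates from RefSeq, 5′ to 3′ with the G-box in capitals.
CHS: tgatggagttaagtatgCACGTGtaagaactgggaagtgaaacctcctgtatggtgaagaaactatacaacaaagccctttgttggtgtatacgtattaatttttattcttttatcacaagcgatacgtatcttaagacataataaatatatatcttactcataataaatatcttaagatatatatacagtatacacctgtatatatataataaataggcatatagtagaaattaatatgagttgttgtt
DFR: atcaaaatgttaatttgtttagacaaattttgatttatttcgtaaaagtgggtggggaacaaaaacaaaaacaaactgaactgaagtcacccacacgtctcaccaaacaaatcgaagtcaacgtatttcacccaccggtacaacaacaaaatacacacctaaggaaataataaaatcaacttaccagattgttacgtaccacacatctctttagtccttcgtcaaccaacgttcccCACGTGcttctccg

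Stress genes were higher in low numbers in part, with a wider spread. Over all tested genes 1.79% were called higher and 1.34% lower. In the list of cold, drought and abscisic acid genes, 7 of 22 were called higher and none lower (median 0.43). RD29A, a classic target of these signals, had 36.8 and 18.4 FPKM in OE1 and OE2 and 22.4 and 27.5 FPKM in WT1 and WT2, against 9.52 and 3.77 FPKM in OE4 and OE5 and 16.3 and 10.3 FPKM in WT4 and WT5. The dehydrin gene RAB18 (AT5G66400) stood at 30.4 FPKM in OE1 but at 5.77 to 8.14 FPKM in OE2, WT1 and WT2, and its difference of 1.4 (SE 0.65) was 0.77 without OE1. P5CS1, which makes proline, differed by 0.92 (SE 0.18). Of 19 touch and early stress genes, 4 were called higher (median 0.54), among them ERF104 and the calmodulin-like TCH2 (0.95 and 0.93). This median was 0.26 without OE1, 0.20 without OE5 and 0.76 without OE2, and without OE2 or OE4 the count was 10 or 9, and ERF104 was at 0.60 without OE5. Single called members were the jasmonate repressor JAZ7 (1.34), the salicylate factor WRKY70 (1.22), the nicotianamine synthase NAS4 (0.93) and the phosphatase PAP17 (0.80), while the list medians were 0.27 for jasmonate, 0.13 for salicylate, 0.10 for iron and 0.10 for phosphate.

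Sugar starvation genes were lower in low numbers. Of 17 tested members, 10 were called lower and none higher in low numbers, with a median of -0.76. The shares over all tested genes were 1.34% lower and 1.79% higher. BCAT2, which breaks down branched-chain amino acids, had 2.95 and 4.44 FPKM in OE1 and OE2 and 2.197 and 2.763 FPKM in WT1 and WT2, against 15.3 and 16.4 FPKM in OE4 and OE5 and 10.01 and 25.5 FPKM in WT4 and WT5 (difference -2.08, SE 0.32). The asparagine synthetase gene ASN1, a marker of low sugar, had 48.5 and 79.2 FPKM in OE1 and OE2 and 38.9 and 69.4 FPKM in WT1 and WT2, against 166 and 166 FPKM in OE4 and OE5 and 172 and 247 FPKM in WT4 and WT5 (difference -1.69, SE 0.30). In both genes the highest low-numbered value was below the lowest high-numbered one. SEN1 (AT4G35770), GDH2 and MCCA, for a dark-induced protein, glutamate dehydrogenase and a carboxylase of leucine breakdown, differed by -1.88 (SE 0.36), -1.44 (SE 0.30) and -1.47 (SE 0.26). The bZIP1 transcription factor gene BZIP1 and BT2, which also respond to sugar, were not called (0.21 and -0.01).

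ERD5 (AT3G30775), the proline dehydrogenase, had 186 and 386 FPKM in OE1 and OE2 and 70.4 and 174 FPKM in WT1 and WT2, against 734 and 630 FPKM in OE4 and OE5 and 448 and 621 FPKM in WT4 and WT5. The difference was -1.79 (SE 0.44), opposite in sign to that of the proline synthesis gene P5CS1. The element ACTCAT, known for its role in the response of this gene to proline and low osmolarity, occurs in its promoter and in those of DIN9 and DRM1, 3 of 17 in the list, and in 11.8% of promoters of all tested nuclear genes. The window of 250 bases is chr3:12451557-12451806 (TAIR10.1, minus strand, from RefSeq), shown 5′ to 3′, with the match in capitals on the opposite strand, its first base 24 bases before the gene start.
ERD5: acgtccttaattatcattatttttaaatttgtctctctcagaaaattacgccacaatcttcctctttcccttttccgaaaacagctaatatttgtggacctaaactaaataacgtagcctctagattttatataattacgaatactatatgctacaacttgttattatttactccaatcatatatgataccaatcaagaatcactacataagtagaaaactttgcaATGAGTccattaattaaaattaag

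Further catabolic lists, added after the values were seen, held some lower genes in low numbers. The share called lower over all tested genes was 1.34%. Of 4 tested genes for myo-inositol and raffinose breakdown 3 were called lower. The inositol oxygenase MIOX2 had 42.6 and 94.2 FPKM in OE1 and OE2 and 11.9 and 35.3 FPKM in WT1 and WT2, against 233 and 177 FPKM in OE4 and OE5 and 124 and 177 FPKM in WT4 and WT5 (difference -2.23, SE 0.51). MIOX4 and the raffinose hydrolase gene SIP2 differed by -1.69 and -1.40, and MIOX1 by 0.06. Among 15 genes of branched-chain amino acid and lysine breakdown, 4 were called lower (median -0.17), including AT1G21400, a subunit of the branched-chain ketoacid dehydrogenase (-1.35), ETFQO (-1.05) and ALDH6B2 (-0.98). The threonine aldolase THA1, named for its size, differed by -2.05 (SE 0.30). Of 9 ATG8 genes, which mark autophagosomes, only ATG8E was called (-0.67), and it was not called without WT1 (-0.54).

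**Figure D4:**
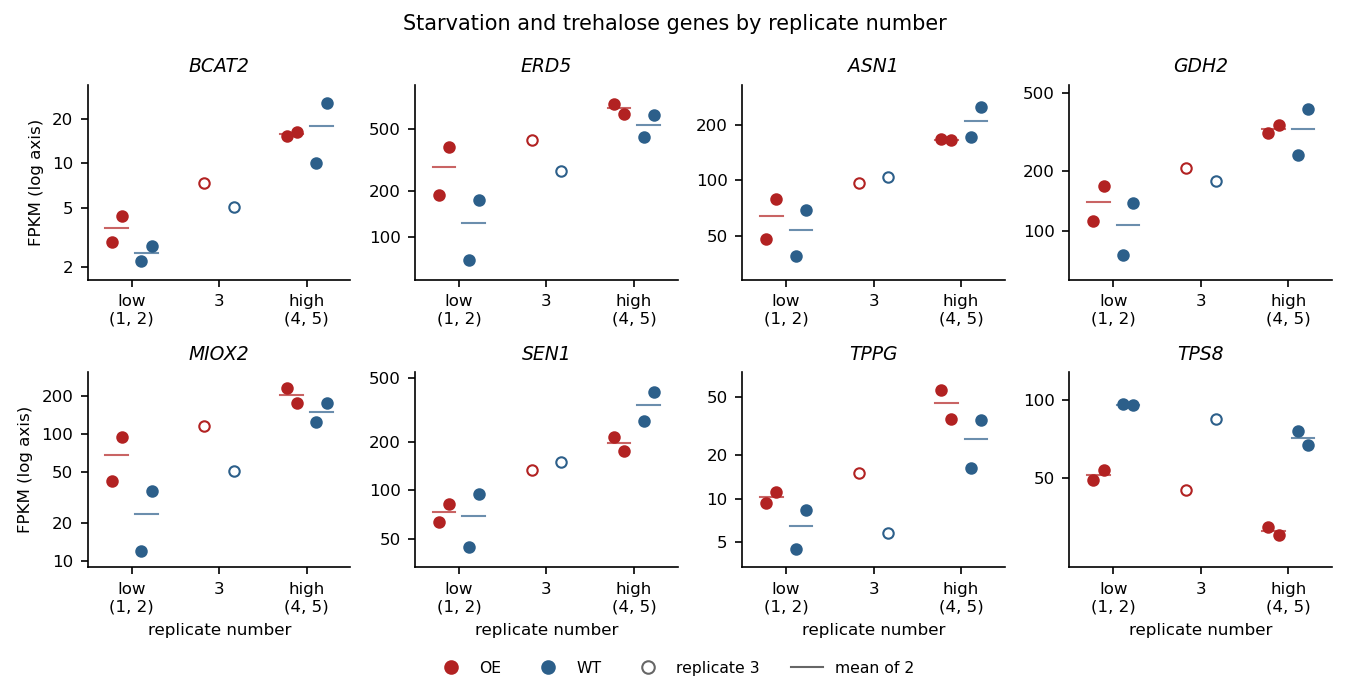
FPKM of 6 starvation genes, of TPPG and of TPS8 in each of the 10 libraries (y axis, log scale, a separate range in each panel), by replicate number (x axis), with OE in red, WT in blue, open points for replicate 3 and lines at the mean of 2 libraries. TPPG and the 6 starvation genes are lower in the low-numbered libraries of each genotype, and TPS8 is higher, at 48.9 and 53.5 FPKM against 32.3 and 30.2 FPKM in OE.

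In trehalose metabolism, to which the transgene belongs, 1 of 16 genes was called. Over all tested genes 3.13% were called, and nothing is read from this count. TPPG, a trehalose-6-phosphate phosphatase, had 9.31 and 11.2 FPKM in OE1 and OE2 and 4.49 and 8.40 FPKM in WT1 and WT2, against 55.9 and 35.6 FPKM in OE4 and OE5 and 16.3 and 35.0 FPKM in WT4 and WT5 (difference -1.91, SE 0.34). The Arabidopsis gene TPS8 had 48.9 and 53.5 FPKM in OE1 and OE2 and 96.0 and 95.1 FPKM in WT1 and WT2, against 32.3 and 30.2 FPKM in OE4 and OE5 and 75.8 and 67.1 FPKM in WT4 and WT5. Its sets did not overlap within a genotype, and the difference of 0.56 (SE 0.08) was just under the threshold. TPS5 of the same class differed by 0.48 (SE 0.09), TPS9, TPS10 and TPS6 differed by -0.32, -0.26 and -0.24, TPS11 by 0.11, TPS7 by -0.01 and the catalytic synthase TPS1 by 0.22, none of them called.

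Clock genes differed by small amounts. Their few called members stand beside 3.13% called over all tested genes. The mean of log2(FPKM + 1) over the 8 tested morning genes was 3.46 to 3.64 in low-numbered and 3.05 to 3.41 in high-numbered libraries (difference 0.28, SE 0.06). Over the 12 afternoon and evening genes it was 4.58 to 4.68 in low-numbered and 4.71 to 4.93 in high-numbered libraries (difference -0.20, SE 0.04). Neither list thus overlapped between the sets. Replicate 3 lay between the means of the low and high libraries of its genotype in both lists. For morning genes, however, WT3 (3.396) was below WT4 (3.413), and for evening genes OE3 (4.709) was above OE5 (4.706). Both values thus lay within the high-numbered range of their genotype. Of the morning genes only LNK1 was called (0.94, SE 0.22), CCA1 stood at 1.71 and 1.72 FPKM in OE1 and OE2 and 2.83 and 1.35 FPKM in WT1 and WT2, against 0.981 and 0.727 FPKM in OE4 and OE5 and 1.16 and 0.918 FPKM in WT4 and WT5, and the list median was 0.27. The difference of CCA1 was 0.56, and 0.90 with a pseudocount of 0.1. Of 12 afternoon and evening genes only BOA was called (-1.16, SE 0.20), while TOC1 differed by -0.42 (SE 0.09) without overlap and GI by 0.10. The evening median was -0.18, and 10 of the 12 genes lay below 0. Of the 8 morning genes 5 lay above and 3 below 0, and 3 were higher without overlap in either genotype. Among clock outputs, the transcription factor CDF1 (AT5G62430) was called higher (0.96) and RVE2 lower (-0.68) in low numbers. RVE2 was not called without OE1 (-0.55). Cytokinin response genes had a median of -0.27, with ARR7 and ARR6, negative regulators of the response, called lower (-0.98 and -0.67). The median of this list was -0.51 in OE and -0.04 in WT.

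Large groups of housekeeping and photosynthesis genes held no called gene. None of 47 photosynthetic genes (median 0.05), 35 genes of cell division (0.12), 21 genes of starch metabolism (0.11) and 12 heat shock genes (0.05) was called. Over all tested genes only 3.13% were called, so lists of 12 to 47 genes can easily hold none, and nothing is read from these counts. Members of the starch list ranged from -0.86 to 0.56. Of 286 tested nuclear genes named for ribosomal proteins none was called either, with a median of 0.00 and mean levels of log2(FPKM + 1) of 6.81 in both sets. Nitrate response, auxin and growth, cell wall and senescence lists had medians between -0.06 and 0.16 and at most 3 called genes each. In the auxin list these were SAUR22 and SAUR20 (0.72 and 0.66) and XTR7 (-0.81), in the cell wall list EXPA8 (1.03) and XTH24 (-0.92). NIA1 (0.61) was not called without any of OE1, WT1 and WT5, nor SAUR20 without WT1 or WT5.

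**Figure D5:**
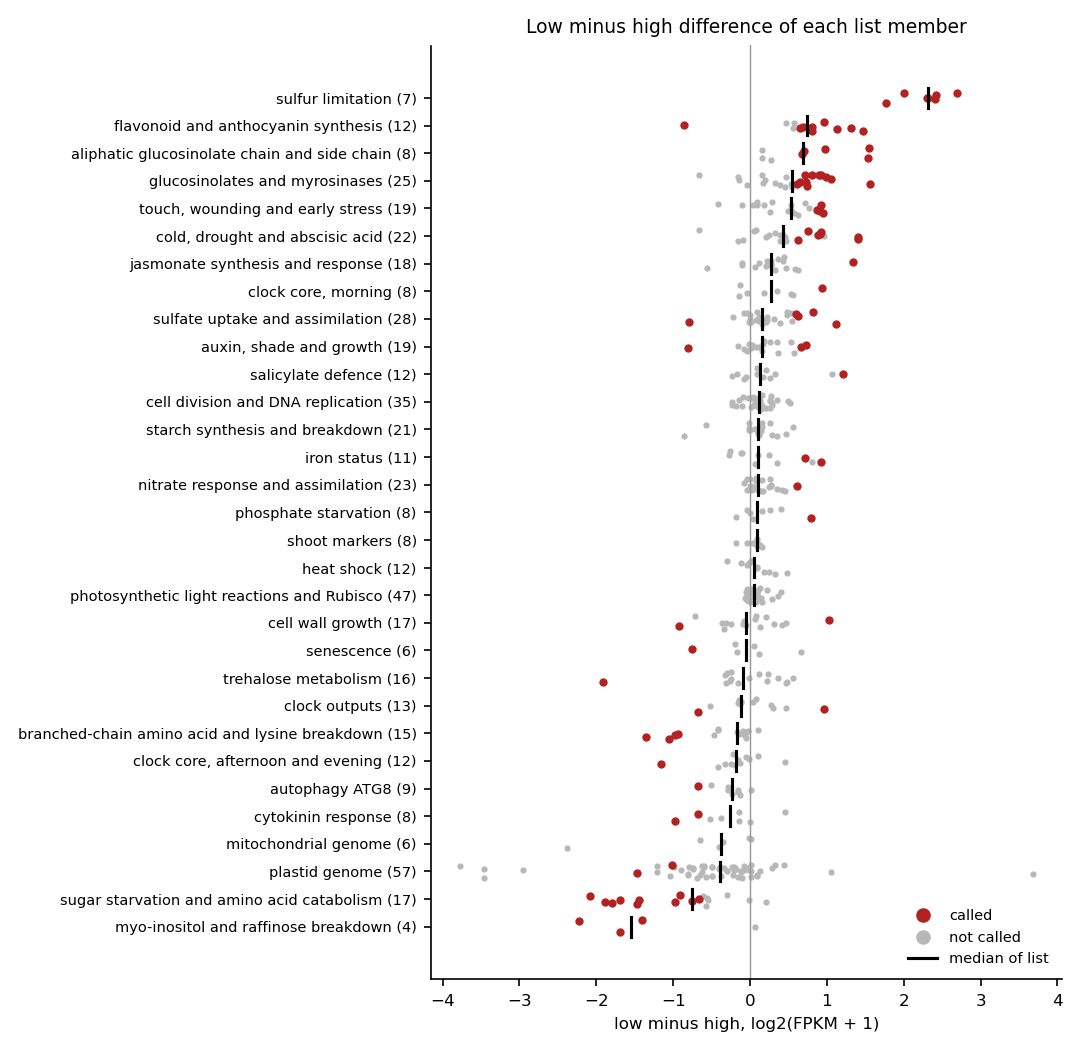
Low minus high difference on the log2(FPKM + 1) scale (x axis) of each tested member of 31 gene lists (y axis, number of tested members in brackets, sorted by median), with called genes in red, other members in grey and black bars at the list median. Sulfur limitation stands at the top with a median of 2.32, and sugar starvation and myo-inositol breakdown at the bottom with -0.76 and -1.54.

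A few of the largest differences came from very short transcripts, those under 300 nt. Of the 554 called genes 8 (1.45%) have transcripts under 300 nt. Of all 17713 tested genes, 17328 remained when transcripts under 300 nt or without a known length were left out. Nothing is read from the count of 8. AT5G51915 (174 nt) had 7.43 and 14.4 FPKM in OE1 and OE2 and 14.7 and 19.3 FPKM in WT1 and WT2, and was listed at 0 in all high-numbered libraries. AT1G09323 (206 nt) was likewise listed at 0 in high numbers, and AT1G04157 (225 nt) in low numbers. AT2G01021 (102 nt) had 1474 and 1539 FPKM in OE1 and OE2 and 1006 and 0 FPKM in WT1 and WT2, against 4566 and 4811 FPKM in OE4 and OE5 and 3323 and 3180 FPKM in WT4 and WT5, and its difference of -4.16 was -1.66 without WT2. The non-coding AT3G03975 (202 nt), at -2.33, was at -1.05 without WT2, which was listed at 0. Of 57 tested plastid genes 2 were called lower in low numbers, ATCG00720 and ATCG00530 (-1.02 and -1.47). Over all tested genes 3.13% were called, and nothing is read from this count. The median of the plastid list was -0.39. That median was -0.82 in OE and 0.05 in WT, and 14 of the 57 genes had an unadjusted interaction p under 0.05 in limma, none past adjustment.

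Replicate 3 was left out of the low minus high contrast but entered the 1 FPKM filter. The sets were chosen with earlier results of these data known, so replicate 3 is no independent check. It was set against the means of the low and high libraries of its genotype. It lay between them in 88% of genes called higher and 88.6% of those called lower in OE, and in 79.5% and 67.1% in WT. Over all tested genes the shares were 37.6% in OE and 27% in WT. Called genes were selected for a wide gap between the sets, in which another library falls more often by construction, so nothing is read from the contrast of these shares. Means over the lists of sulfur limitation, glucosinolates, flavonoids and sugar starvation had replicate 3 between the sets in both genotypes. These lists have wide gaps between the sets, so nothing is read from this position either. Means over clock outputs, starch, cell division, senescence and ribosomal proteins had replicate 3 between the sets in neither genotype. For sulfur limitation the mean of log2(FPKM + 1) was 4.71 and 3.38 in OE1 and OE2 and 4.99 and 4.498 in WT1 and WT2, against 1.98 and 1.86 in OE4 and OE5 and 2.69 and 1.96 in WT4 and WT5, with 2.74 in OE3 and 3.27 in WT3. For sugar starvation it was 5.97 and 6.28 in OE1 and OE2 and 5.75 and 6.20 in WT1 and WT2, against 6.87 and 6.84 in OE4 and OE5 and 6.95 and 7.33 in WT4 and WT5, with 6.54 in OE3 and 6.52 in WT3.

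Whether the low minus high difference itself differed between OE and WT was tested as an interaction in limma. The sets were picked on expression in both genotypes, which in part favours like differences in OE and WT. A low count is therefore no independent support for likeness. Only 4 of 17713 genes passed an adjusted p of 0.05 (0.0226%), and 427 (2.41%) had an unadjusted p under 0.05. None of the 554 called genes was among the 4. All 4 have transcripts under 300 nt. The small nuclear RNA gene U6-1, and U6.3 and U6.4 with the same values in these 8 libraries, had 137 and 142 FPKM in OE1 and OE2 and 0 FPKM in WT1 and WT2, against 0 FPKM in OE4 and OE5 and 912 and 175 FPKM in WT4 and WT5 (limma adjusted p = 0.00314). AT3G02545 was measured only in OE1 and OE2, at 6.78 and 6.25 FPKM (limma adjusted p = 0.0154). With transcripts under 300 nt left out, a choice made after the data were seen, limma passed 0 genes, and 392 had an unadjusted p under 0.05. With 2 libraries per group, a difference that missed the threshold is not shown to be equal in OE and WT: for LSU2 the OE minus WT difference of the contrast was -0.56, for RAB18 1.88 and for MIOX2 1.13.

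Genotype differences were then tested within each set. OE and WT differed in 4 genes within low numbers (0.0226%), all of them short transcripts, and in 13 genes within high numbers (0.0734%), 5 higher and 8 lower in OE, of which 7 were short. The other 6 in high numbers included DFR, CHS and GSTF12 of the anthocyanin pathway. Their log2 differences of 1.64, 1.61 and 1.13, higher in OE, had limma adjusted p-values of 0.020, 0.0426 and 0.0441. Within low numbers the same differences were 0.70, 0.66 and 0.43 (limma adjusted p = 0.229, 0.304 and 0.349). The interaction, which tests whether these differ between the sets, did not pass for any of the 3 (limma adjusted p = 1). Its unadjusted limma p-values were 0.0023 for DFR, 0.0053 for CHS and 0.0046 for GSTF12, and 2.41% of all tested genes were under 0.05. With 1 library left out at a time, the adjusted p within high numbers ran up to 0.159 for DFR, 0.223 for CHS and 0.235 for GSTF12, which then passed in 2, 1 and 0 of 8 cases. The others were TPS8 (-1.17), AT2G25200 (-1.35) and AT2G29670 (-0.75), all lower in OE, with limma adjusted p up to 0.0864, 0.0864 and 0.208 when 1 library was left out. Within low numbers TPS8, AT2G25200 and AT2G29670 were also lower in OE, by -0.89, -0.81 and -0.33 (limma adjusted p = 0.0926, 0.106 and 0.280). Over the 8 libraries together these 3 genes passed (limma adjusted p = 0.0449, 0.0204 and 0.0243), in a fit that depended on single libraries, as given below. Apart from GSTF12, TPS8 and the short transcripts, the genes of this test were named after their values were seen.

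Over the 8 libraries together, OE and WT differed in 332 genes (1.87%), 289 higher (1.63%) and 43 lower (0.243%) in OE, and none of these was among the 554 genes called between low and high numbers. This fit has no term for the number set, so a low minus high difference counts as spread and called genes can hardly pass. Ribosomal protein genes made up 152 of the 289. RPL3B, a large-subunit protein, had 25.5 and 24.7 FPKM in OE1 and OE2 and 12.9 and 11.9 FPKM in WT1 and WT2, and 24.3 and 22.7 FPKM in OE4 and OE5 and 13.8 and 11.9 FPKM in WT4 and WT5. Its OE minus WT difference was 0.89 (limma adjusted p = 0.0113), and its low minus high difference 0.02 (SE 0.06). The count of 332 was 0 without OE2, 1 without WT2, 128 without OE4, 141 without WT5, 147 without WT4 and 156 without OE5 (unadjusted p under 0.05 in 1883 genes without OE2). With the number set as a covariate 496 genes passed, 20 of them among the 554, and over all 10 libraries 512, of which 313 were among the 332. With length and GC trends removed the count was 93, without the variance trend 163, and with the replicate block over 4 pairs 0 (3155 genes at an unadjusted p under 0.05 in limma).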

How the data were processed

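RNA-seq libraries of 5 OE and 5 WT shoot samples were used, and the 8 numbered 1, 2, 4 and 5 entered the comparisons. The authors deposited 1 FPKM value per gene and library. Per the submitters' processing notes, reads were handled with kallisto 043.1 and sleuth, beside FastQC, Trimmomatic 0.36 and R 3.5.1; the genome build is not given in the sources used here. Of 32824 genes, 8233 were at 0 everywhere and 17713 with a mean of at least 1 FPKM were analysed as log2(FPKM + 1), a scale that understates differences of low genes. Depth was estimated from the steps between values of weakly expressed genes for an assumed fragment of 200 nt. The SEs come from the spread between libraries, without a separate term for errors of counting.

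The members, gene lists and comparisons were chosen with earlier results of these data known, and 5 lists were added later, as said beside them. Low minus high differences and SEs come from a linear model with genotype. Tests of genotype and interaction used limma 3.58.1 with a variance trend in R 4.3.3, two-sided, with Benjamini-Hochberg adjustment over all 17713 genes, at 0.05. On simulated data, the interaction recovered 28.5% of 1.5-fold and 94.5% of 2-fold changes in genes above about 5 FPKM. In these data genes of the same level shared 1 spread, so the shares do not give the recovery of the interaction in the real libraries. The simulated data also held no difference between low and high numbers, so they do not show how the genotype fit behaves on the real libraries. Named were TPS8, the 12 nuclear genes with the largest difference in each direction (called, at least 5 FPKM in the higher set), up to 3 called genes per list or its most abundant one, the clock core genes, and the leading genes of the interaction (up to 5) and of OE minus WT (up to 3 in each direction); other members were picked for naming with their values known. Symbols and promoters came from RefSeq (TAIR10.1), which held 32539 of the identifiers. Alternatives covered pseudocounts of 0.1 and 0.5, filters, scaling, organelle genes, length and GC trends (loess, span 0.5), the replicate block, and omission of each library. Leaving out short transcripts, the 3 plastid-rich libraries or both libraries numbered 4 was chosen after seeing the data. The replicate number was not used as a block in the main test. Deviations from the group means correlated above 0.1 in 2 of 5 pairs with the same number. That cutoff does not show that the libraries are unpaired, and fits with the number set or the replicate block are given as alternatives. Figures were drawn with matplotlib.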

Additional observations from a re-analysis of the deposited data

Results flagged for a closer look

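Of 270 sets of 5 libraries (32 list means and 103 genes in each genotype) 12 had a library far from the other 4 by Dixon's criterion, and chance gives about 1 in 20. Among list means of log2(FPKM + 1), trehalose metabolism was high in OE4 (3.75), senescence in WT5 (3.673) and the mitochondrial genome in WT3 (3.464), and cytokinin response was low in WT3 (2.428). The remaining 8 were single genes. AT5G56670, a ribosomal protein gene of the S30 family, was low in OE3 (559.1 FPKM) and the long non-coding RNA AT1G05253 high in WT3 (114.6 FPKM), both outside the low and high sets. AT1G47395 was low in WT4 (0.5457 FPKM), and it was not called between low and high numbers without that library (0.54 on the log2 scale). ATCG00720 was low in WT1 (0.6046 FPKM). ATMG01380 was listed at 0 in OE1 and stood at 102.5 FPKM in WT3, and AT2G01021 was listed at 0 in OE3 and in WT2.

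The low minus high difference differed between OE and WT by the interaction test in 4 genes, with fitted log2 differences of 15.78 for U6-1, U6.3 and U6.4 (limma adjusted p = 0.00314) and 2.91 for AT3G02545 (limma adjusted p = 0.0154). Each has 0 FPKM in 1 or more of the 4 groups, so these sizes depend on the pseudocount.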

How the results depend on the processing

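Of 32 list medians under 19 alternative settings, 578 values stayed within the spread between libraries and 24 moved beyond it; of 103 named genes, 1874 stayed and 43 moved, and no called gene changed sign. The median of 6 lists near 0 did under some alternative: clock outputs (-0.11, up to 0.04), trehalose (-0.09, up to 0.02), salicylate (0.13, down to -0.01), cell wall (-0.05, up to 0.04), senescence (-0.06, up to 0.06) and ribosomal proteins (0.00, down to -0.02). The numbers of genes called higher and lower in low numbers (317 and 237) were 71 and 69 with a 2-fold minimum, 708 and 419 without the 3 libraries richest in plastid RNA, and 619 and 360 without both libraries numbered 4, where fewer libraries enter the rule. A filter at 5 FPKM gave 208 higher, from fewer genes. With 1 library left out at a time they ran from 299 to 489 and from 222 to 327, and the glucosinolate median (0.54) from 0.54 to 0.68. The interaction (4 genes) gave 13 with no filter, 0 without transcripts under 300 nt (392 at an unadjusted p under 0.05, limma) and 7 to 16 with 1 library left out, where the lone library is assumed to vary like the others.

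OE minus WT (332 genes) gave 221 with quantile normalization, 93 with length and GC trends removed, 163 without the variance trend, 512 over all 10 libraries, and 0 to 262 with 1 library left out. With the replicate block it gave 0 over 4 pairs (lowest limma adjusted p 0.0504; 3155 genes at an unadjusted p under 0.05) and 781 over 5 pairs. By the rule for pairing the libraries were treated as unpaired in the main test, as 2 of 5 OE and 2 of 5 WT libraries correlated best with their own number. That rule does not show that the number has no part in the spread. Within low numbers (4 genes) the counts were 1 without the trend, 0 without short transcripts (1488 unadjusted) and 2 to 10 with 1 library left out; within high numbers (13 genes) they were 8, 6 and 5 to 19. The cause was not tested for any of these. Genes under a few FPKM rest on few fragments, and their differences grow with a smaller pseudocount. The median shift between settings for sulfur limitation was small, from 2.31 to 2.73 over the settings that keep all libraries.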

Other observations

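Deviations of the libraries from their genotype means were compared between OE and WT across the 17713 genes, which are not independent replicates. For 8 pairs within the same number set the correlation had a median of 0.12 (range -0.0385 to 0.199), and for 8 pairs of different sets a median of -0.131 (range -0.241 to 0.0218). The sets were picked on these expression values, so the contrast restates that choice.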
